A study of Mus musculus with 6 samples.

Results

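The genes described here make the peptide hormones of the islet ready for secretion. The set holds 10 genes of prohormone processing and of the insulin granule: Pcsk1, Pcsk2, Scg5, Cpe, Chga, Chgb, Scg2, Scg3, Ptprn and Slc30a8. They were chosen by name, and their probes were found through the RefSeq accession that the array annotation gives for each probe. All 10 passed the filter on dim signal and are among 19020 genes tested. They are represented by 13 probes, 3 for Cpe, 2 for Pcsk2 and 1 for each of the others, and each of the 13 probes was well above background on all 6 arrays.

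Insulin is made as a larger precursor that is packed into secretory granules and cut there at pairs of basic residues by prohormone convertases, after which carboxypeptidase E removes the exposed basic residues. Granins are acidic proteins that aggregate in the same compartment and are stored and released with the hormone. Granule membrane proteins keep the granule stable and load it with zinc, with which insulin crystallises. The other endocrine cells of the islet use many of the same proteins for their own hormones.

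RNA of pancreatic islets was hybridised to 1-colour Agilent arrays, 2 for each of 3 groups. All mice were male, 16 weeks old and of ICR background according to the labels, and all carried floxed alleles of Trsp, the gene of the selenocysteine transfer RNA. TrspFF islets (TrspFlox/Flox) are the floxed controls, Trsp-RIPKO islets also carried RIP-Cre, and Trsp-Ins1KO islets also carried Ins1-Cre. RIP-Cre lines are known to be active in some hypothalamic neurons as well as in beta cells, whereas Ins1-Cre acts in beta cells. Neither line is aimed at the other islet cells, which contribute to every value below. The labels do not say whether the arrays of a group hold RNA of different animals, so p-values cover the spread between these samples only, and that spread may be technical.

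Several facts about the arrays bear on the results. The authors' deposited table of values assigns its columns to samples differently from the scanner files. Over 24821 probes its TrspFF columns matched the scanner files of Trsp-Ins1KO replicates 1 and 2 (r = 1.0 each) and not their own (r = -0.176 and -0.184), and its Trsp-Ins1KO columns matched the TrspFF files. The Trsp-RIPKO columns matched their own files (r = 1.0 each). Directions below follow the scanner files, and the values under the table's names are given with the comparisons. No probe was matched to Trsp, and the deletion itself could therefore not be seen in these data. Xist, the RNA of the inactive X chromosome in female cells, was not well above background on the Trsp-Ins1KO arrays (-5.79 and -5.60). It was so on the 4 arrays of TrspFF (log2 values -0.56 and -0.32) and Trsp-RIPKO (1.05 and 1.34). Y-linked Ddx3y and Eif2s3y were well above background on all 6 but dimmest on the Trsp-RIPKO arrays. Ddx3y lay at -0.53 and -0.44 there, while the remaining arrays ranged from 0.51 to 0.96. Eif2s3y lay at 0.37 and 0.32 there, against a range of 1.02 to 1.53 elsewhere. Sex-linked RNA thus differed along with genotype, and its part in the differences below was not tested. Slide 1 carried the arrays of TrspFF and Trsp-Ins1KO and slide 2 only those of Trsp-RIPKO, whose genotype and slide therefore cannot be told apart. The 75th percentile of processed intensity lay at 203 to 247 for TrspFF and Trsp-RIPKO and at 111 and 122 for Trsp-Ins1KO, and 0 spots were saturated. Islet hormone genes Ins1, Ins2, Gcg, Sst and Ppy were well above background on all 6 arrays.

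In Trsp-RIPKO islets, 4 of the 10 genes were lower than in TrspFF islets and 0 were higher. Chga, Scg3, Slc30a8 and Scg5 fell by 0.59, 0.48, 0.43 and 0.36 on the log2 scale. Of all 19020 genes tested, 17.5% were called lower and 18.9% higher in Trsp-RIPKO. With any 1 of the TrspFF or Trsp-RIPKO arrays left out, most of the members' calls were lost, as were most calls among all genes. In Trsp-Ins1KO islets, Scg5, Slc30a8 and Pcsk1 were lower than in TrspFF islets by 0.84, 0.75 and 0.25, and Ptprn and Chga were higher by 0.90 and 0.31, where 22.9% and 23% of all genes were called lower and higher. Scg5, the chaperone of the convertase Pcsk2, and Slc30a8, the granule zinc transporter, were the members called lower in both knockouts. The Trsp-RIPKO and Trsp-Ins1KO comparisons share their TrspFF arrays.

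The promoters of the genes are shown first because several of them hold the same short element. RefSeq's promoter table for GRCm38.p6 gives 250 bases before and 50 after each gene's start, and 8 of the 10 genes matched an entry. Cpe and Slc30a8 are named only. The cyclic AMP response element (CRE) TGACGTCA was present in the promoters of 3 of these 8 genes, Scg2, Chgb and Pcsk1, against 1.79% of all 32851 promoters. In the windows below, capitals mark the CRE, and 40 bases are shown on each side of it.
Scg2: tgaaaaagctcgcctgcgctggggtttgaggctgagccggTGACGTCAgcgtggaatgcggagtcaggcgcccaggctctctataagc
Chgb: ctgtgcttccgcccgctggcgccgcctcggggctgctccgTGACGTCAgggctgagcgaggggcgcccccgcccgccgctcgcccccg
Pcsk1: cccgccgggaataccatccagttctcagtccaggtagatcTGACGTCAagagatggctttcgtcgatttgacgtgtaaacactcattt
The Scg2 window lies at chr1:79440047-79440134 on the minus strand, with the element 68 bases before the gene's start. The Chgb window lies at chr2:132781530-132781617 on the plus strand, with the element 72 bases before the start, and the Pcsk1 window at chr13:75089739-75089826 on the plus strand, 78 bases before it.

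The shorter core TGACG, which is part of the CRE, was found in the promoters of all 8 matched genes and in 20.8% of all promoters. Chga, Scg5 and Ptprn, which moved most between groups among the matched genes, hold the core and no exact CRE. Only exact matches were searched, and Chga reads TGACGTAA at its core. Capitals mark 1 occurrence in each window.
Chga: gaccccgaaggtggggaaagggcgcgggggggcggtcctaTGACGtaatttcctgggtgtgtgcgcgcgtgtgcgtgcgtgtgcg
Scg5: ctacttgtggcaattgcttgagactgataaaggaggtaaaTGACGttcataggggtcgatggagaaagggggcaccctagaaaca
Ptprn: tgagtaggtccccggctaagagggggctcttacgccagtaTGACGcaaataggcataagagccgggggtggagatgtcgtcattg
These windows lie at chr12:102554857-102554941 (plus strand, core 44 bases before the start), chr2:113829222-113829306 (minus strand, 175 bases before) and chr1:75264281-75264365 (minus strand, 117 bases before). The other motifs searched, on both strands, were E-boxes, the TATA and CCAAT boxes, a GC box, the A box CTAATG of homeodomain factors, and TTCAGCACC and GGACAGCGC, parts of the RE1 element bound by REST. CANNTG was found in 6 of the 8 genes (72.3% of all promoters), GGGCGG in 6 (35.7%), CCAAT in Pcsk2 and Scg3 (37.4%), TATAAA in Chga (13.6%) and TTCAGCACC in Scg2 (0.371%). CACGTG and CAGATG, which are forms of CANNTG, were found in 0 of the 8 (7.15% and 17.2% of all promoters), as were CTAATG (7.36%) and GGACAGCGC (0.405%). Genes with the exact CRE and genes with the core but no exact CRE both included members that passed the test against TrspFF and members that did not.

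Values from here on are log2 intensity over the array's 75th percentile, given for replicates 1 and 2 of each group. They depend on each probe's own brightness and are compared between groups for 1 probe at a time. SE is the standard error of the fit, n is 2 arrays per group, and a gene was called at an adjusted p under 0.05 from limma over all 19020 genes.

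**Figure D1:**
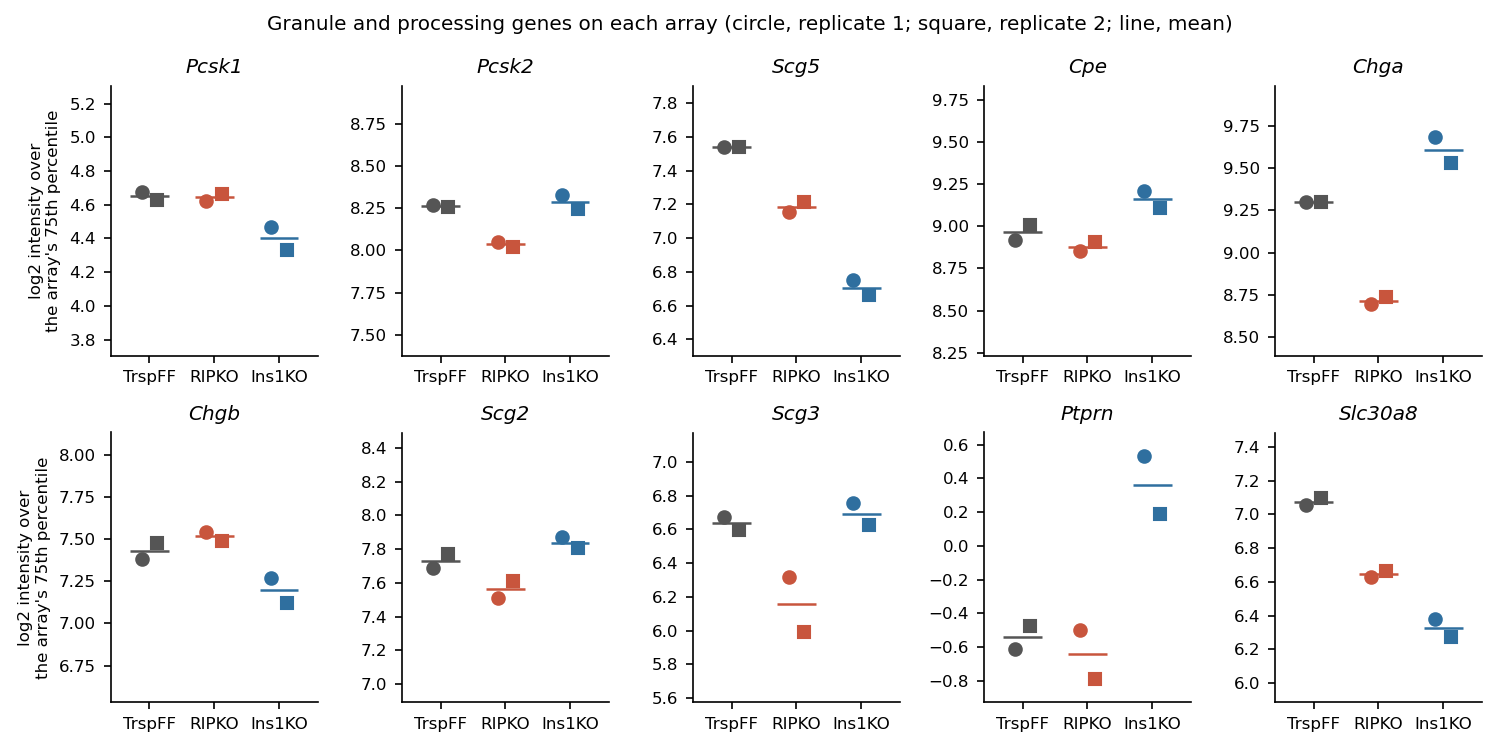
Log2 intensity over the array's 75th percentile for each of the 10 genes, by group; circles are replicate 1, squares replicate 2 and lines group means, and every panel spans the same number of log2 units around its own level. Scg5 and Slc30a8 step down from TrspFF to Trsp-RIPKO to Trsp-Ins1KO, Chga is lowest in Trsp-RIPKO (8.69 and 8.74), and Ptprn is highest in Trsp-Ins1KO (0.53 and 0.19).

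Pcsk1, the convertase that makes the cut between the B chain and the C-peptide of proinsulin, read 4.67 and 4.63 in TrspFF against 4.62 and 4.66 in Trsp-RIPKO and then 4.47 and 4.33 in Trsp-Ins1KO. Both Trsp-Ins1KO arrays lay below the other 4, and the TrspFF and Trsp-RIPKO arrays overlapped. The difference was -0.0078 in Trsp-RIPKO (SE 0.077, limma adjusted p = 0.945) and -0.25 in Trsp-Ins1KO (SE 0.077, adjusted p = 0.0482). The Trsp-Ins1KO call for Pcsk1 held in 4 of 15 alternative settings and ended without any 1 of the TrspFF or Trsp-RIPKO arrays or without Trsp-Ins1KO 2 (adjusted p from 0.0805 to 0.21 in these). Between the knockouts the difference was -0.24 (adjusted p = 0.0593).

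Pcsk2, the convertase that cuts between the C-peptide and the A chain and that also makes glucagon in alpha cells, read 8.27 and 8.26 in TrspFF against 8.05 and 8.02 in Trsp-RIPKO and then 8.33 and 8.24 in Trsp-Ins1KO. The Trsp-RIPKO arrays were the lowest, and TrspFF and Trsp-Ins1KO arrays overlapped. The difference in Trsp-RIPKO was -0.23 (SE 0.068) and missed the threshold (limma adjusted p = 0.0529), though it passed in 9 of 15 alternative settings. In Trsp-Ins1KO it was 0.022 (adjusted p = 0.807). A dimmer probe of Pcsk2 read 4.76 and 4.78, 4.45 and 4.49, and 4.29 and 4.16 across those groups. By that probe Pcsk2 was lower in Trsp-RIPKO by 0.30 (adjusted p = 0.0383) and lower in Trsp-Ins1KO by 0.54 (adjusted p = 0.00604), so the 2 probes disagree for Trsp-Ins1KO. They also disagree in sign between the knockouts, at 0.25 (adjusted p = 0.0396) and -0.24 (adjusted p = 0.0602).

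Scg5 encodes 7B2, the chaperone that Pcsk2 needs for its activation, and it was lower in both knockouts. Its values were 7.54 and 7.54 in TrspFF against 7.15 and 7.21 in Trsp-RIPKO and then 6.75 and 6.66 in Trsp-Ins1KO. The 3 groups did not overlap, with TrspFF highest and Trsp-Ins1KO lowest. Scg5 was 1.28-fold lower in Trsp-RIPKO (log2 difference -0.36, SE 0.070, limma adjusted p = 0.0189) and 1.79-fold lower in Trsp-Ins1KO (-0.84, SE 0.070, adjusted p = 0.0021). Trsp-Ins1KO lay below Trsp-RIPKO by 0.48 (adjusted p = 0.00719). The Trsp-Ins1KO difference from TrspFF was called in 15 of 15 alternative settings, with values from -1.12 to -0.79. The Trsp-RIPKO call was lost without any 1 of the TrspFF or Trsp-RIPKO arrays (adjusted p from 0.0693 to 0.114), at differences of -0.39 to -0.33.

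Cpe, the carboxypeptidase that trims basic residues from the cut hormones, read 8.92 and 9.01 in TrspFF against 8.85 and 8.90 in Trsp-RIPKO and then 9.21 and 9.11 in Trsp-Ins1KO. The groups did not overlap, but neither difference from TrspFF passed the test: -0.085 in Trsp-RIPKO (limma adjusted p = 0.408) and 0.20 in Trsp-Ins1KO (adjusted p = 0.0891). The knockouts differed from each other by 0.28 (SE 0.076, adjusted p = 0.0389), a call that held in 3 of 15 alternative settings. Another bright probe of Cpe read 8.96 and 8.98, 8.72 and 8.70, and 9.03 and 9.0, and by it Trsp-RIPKO was lower than TrspFF by 0.26 (adjusted p = 0.0357). By that probe Trsp-Ins1KO lay above Trsp-RIPKO by 0.31 (adjusted p = 0.0213). A dim probe of Cpe read 3.29 and 3.29, 3.25 and 3.31, and 3.08 and 3.06, and by it Trsp-Ins1KO was lower than TrspFF by 0.22 (adjusted p = 0.0488). Its difference between the knockouts was -0.21 (adjusted p = 0.0657). The 3 probes therefore give no single direction for Cpe in Trsp-Ins1KO.

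Among the granins, Chga had the widest range. Chga, the precursor of pancreastatin and other peptides, read 9.30 and 9.30 in TrspFF against 8.69 and 8.74 in Trsp-RIPKO and then 9.68 and 9.53 in Trsp-Ins1KO. The Trsp-RIPKO arrays lay below and the Trsp-Ins1KO arrays above the controls, with no overlap. Chga was 1.5-fold lower in Trsp-RIPKO (-0.59, SE 0.079, limma adjusted p = 0.00945) and 1.24-fold higher in Trsp-Ins1KO (0.31, SE 0.079, adjusted p = 0.029). The difference between the knockouts was 1.86-fold (0.89, adjusted p = 0.00227) and was called in 15 of 15 alternative settings. The rise in Trsp-Ins1KO was called in 6 of 15 settings and turned to -0.18 with quantile normalization (adjusted p = 0.18). It was also lost without any 1 of the TrspFF or Trsp-RIPKO arrays or Trsp-Ins1KO 1 (adjusted p from 0.0541 to 0.133). The fall in Trsp-RIPKO stayed between -0.83 and -0.56 in all 15 settings, and its call was lost without any 1 of the TrspFF or Trsp-RIPKO arrays (adjusted p from 0.0508 to 0.0695).

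Chgb, the other main chromogranin of the granule core, read 7.38 and 7.47 in TrspFF against 7.54 and 7.49 in Trsp-RIPKO and then 7.27 and 7.12 in Trsp-Ins1KO. It was spotted 10 times on each array, and the SD over its 9 or 10 usable spots was 0.026 to 0.068, so that spot noise was below the gap between the Trsp-Ins1KO arrays. Neither difference from TrspFF passed the test (0.089, limma adjusted p = 0.439, and -0.23, adjusted p = 0.0768). Trsp-Ins1KO lay below Trsp-RIPKO by 0.32 (adjusted p = 0.0364), a call that held in 6 of 15 settings. Chgb and Chga thus differed between the knockouts in opposite directions.

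Scg2, the granin from which secretoneurin is cut, read 7.69 and 7.77 in TrspFF against 7.51 and 7.61 in Trsp-RIPKO and then 7.87 and 7.80 in Trsp-Ins1KO. The order of the groups was that of Chga, on a smaller scale, and the differences from TrspFF of -0.17 and 0.11 missed the threshold (limma adjusted p = 0.14 and 0.296). Scg3, a granin known to bind Chga and granule membranes, read 6.67 and 6.60 in TrspFF against 6.32 and 5.99 in Trsp-RIPKO and then 6.75 and 6.62 in Trsp-Ins1KO. Both Trsp-RIPKO arrays were below all others and lay 0.32 apart, the widest gap within that group among the 10 genes. Scg3 was lower in Trsp-RIPKO by 0.48 (SE 0.13, adjusted p = 0.04) and differed from TrspFF by 0.054 in Trsp-Ins1KO (adjusted p = 0.752). Its Trsp-RIPKO call held in 8 of 15 settings and was lost without TrspFF 1, TrspFF 2, Trsp-RIPKO 2 or either Trsp-Ins1KO array, with a difference of -0.32 without Trsp-RIPKO 2 (adjusted p = 0.117). The knockouts differed by 0.28 for Scg2 (adjusted p = 0.0416, held in 4 of 15 settings) and by 0.53 for Scg3 (adjusted p = 0.0277, held in 9 of 15).

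Ptprn encodes IA-2, a granule membrane protein of the tyrosine phosphatase family without phosphatase activity and a known autoantigen of type 1 diabetes. Its probe lay at the 51.3 percentile of mean brightness among the genes tested, whereas the probes of the other 9 genes lay at 94.5 or above. Ptprn read -0.61 and -0.47 in TrspFF against -0.50 and -0.79 in Trsp-RIPKO and then 0.53 and 0.19 in Trsp-Ins1KO. Both Trsp-Ins1KO arrays were above the other 4, which overlapped. Ptprn was 1.87-fold higher in Trsp-Ins1KO than in TrspFF (0.90, SE 0.16, limma adjusted p = 0.00984) and 2.01-fold higher than in Trsp-RIPKO (1.0, adjusted p = 0.00871). Before scaling, its processed intensity was 162 and 157 in TrspFF and 176 and 126 in Trsp-Ins1KO. The rise is thus relative to each array's own level, and every setting scaled the arrays. The rise over TrspFF was called in 14 of 15 settings and lost without TrspFF 1 (0.83, adjusted p = 0.0638). In Trsp-RIPKO the difference was -0.10 (adjusted p = 0.634).

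Slc30a8 encodes ZnT8, which carries zinc into the granule. It read 7.05 and 7.09 in TrspFF against 6.63 and 6.67 in Trsp-RIPKO and then 6.38 and 6.28 in Trsp-Ins1KO, so the groups stepped down without overlap, as for Scg5. Slc30a8 was 1.34-fold lower in Trsp-RIPKO (-0.43, SE 0.072, limma adjusted p = 0.0141) and 1.68-fold lower in Trsp-Ins1KO (-0.75, SE 0.072, adjusted p = 0.00263). Trsp-Ins1KO lay below Trsp-RIPKO by 0.32 (adjusted p = 0.023), which held in 8 of 15 settings. The Trsp-Ins1KO fall from TrspFF was called in 15 of 15 settings, between -1.0 and -0.70. The Trsp-RIPKO fall was lost without any 1 of the TrspFF or Trsp-RIPKO arrays (adjusted p from 0.0621 to 0.0912).

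**Figure D2:**
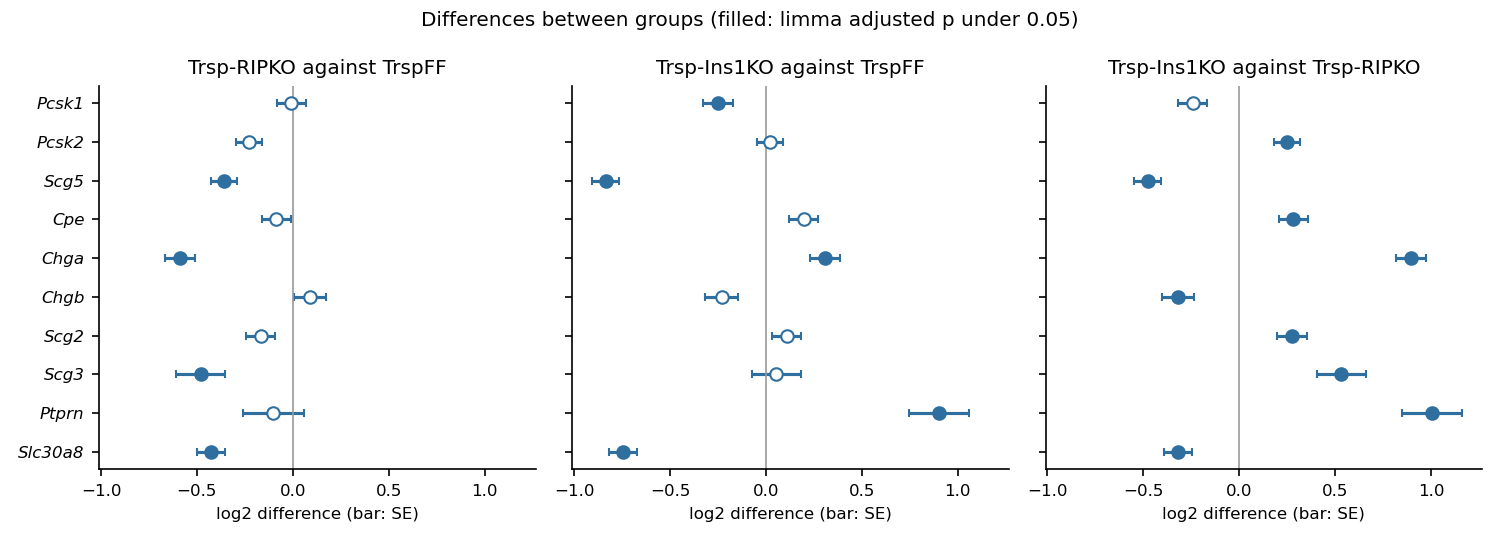
Log2 differences of the 10 genes in the 3 comparisons, with bars of 1 SE; filled points have a limma adjusted p under 0.05. In Trsp-RIPKO 4 filled points lie below 0, in Trsp-Ins1KO 3 lie below and 2 above, and between the knockouts 6 lie above and 3 below.

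The counts of members called can be read beside those of all genes. In Trsp-RIPKO against TrspFF, 4 of 10 members were called lower, against 17.5% of all 19020 genes, and 0 of 10 were called higher, against 18.9%. The median difference of the 10 was -0.20 and that of all genes 0.00. Groups did not overlap for 8 of the 10 members and for 77.4% of all genes. With any 1 TrspFF or Trsp-RIPKO array left out, most of the 4 calls were lost, as were most calls among all genes. All 4 genes stayed lower in these fits. The differences were -0.61 to -0.56 for Chga, -0.64 to -0.32 for Scg3, -0.45 to -0.41 for Slc30a8 and -0.39 to -0.33 for Scg5. Scaling to each array's median moved the median of all genes by -0.24 and split the calls of all genes into 2012 higher and 7264 lower, against 3592 and 3326 in the reported fit. With that scaling 7 members were called lower.

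In Trsp-Ins1KO against TrspFF, 2 of 10 members were called higher and 3 lower, against 23% and 22.9% of all genes. Groups did not overlap for 8 of the 10 and for 76.9% of all genes, and the members' median was 0.038 against -0.014. Without TrspFF 1 only the calls of Scg5 and Slc30a8 held. Without TrspFF 2, Trsp-RIPKO 1 or Trsp-RIPKO 2 only these and that of Ptprn held. Fewer of all genes were called in each of these fits too. With normexp background correction 1 member, Ptprn, was called higher and 6 lower (Pcsk1, Pcsk2, Scg5, Chgb, Scg3 and Slc30a8), while the calls of all genes split into 9198 higher and 4772 lower, against 4377 and 4362. Between the knockouts, 6 members were called higher in Trsp-Ins1KO and 3 lower, against 19.3% and 19.4% of all genes, with a median of 0.26 against -0.0066. All 10 members were without overlap between the knockouts, as were 71.8% of all genes. Leaving out any 1 of the 6 arrays lowered the number of calls among the members and among all genes. The calls of Chga, Ptprn and Scg5 held each time. With median scaling the all-gene median of this comparison moved to 0.16 and the calls of all genes split into 5702 higher and 2350 lower, against 3666 and 3695. With normexp 3 members were called higher (Chga, Scg3 and Ptprn) and 4 lower (Pcsk1, Scg5, Chgb and Slc30a8), and those of all genes split into 8289 higher and 3767 lower.

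Under the column names of the authors' deposited table the picture changes. Its Trsp-Ins1KO against TrspFF values had the opposite sign throughout, so that Scg5 (0.84), Slc30a8 (0.75) and Pcsk1 (0.25) were higher, and Ptprn (-0.90) and Chga (-0.31) lower, all 5 called. For Trsp-RIPKO against TrspFF it gave 9 calls. Its TrspFF columns match the Trsp-Ins1KO files, so these are the calls between the knockouts above with the sign reversed. Scg5 (0.48), Slc30a8 (0.32) and Chgb (0.32) were then higher. Ptprn (-1.0), Chga (-0.89), Scg3 (-0.53), Cpe (-0.28), Scg2 (-0.28) and Pcsk2 (-0.25) were lower. Chga and Scg3 were thus called lower in Trsp-RIPKO under both namings, while Scg5 and Slc30a8 changed sign. Both namings read the same 6 arrays, so this is not a second measurement. Between the knockouts the table's names gave 4 calls, all higher in Trsp-Ins1KO: Chga (0.59), Scg3 (0.48), Slc30a8 (0.43) and Scg5 (0.36). These are the Trsp-RIPKO against TrspFF calls of the reported fit with the sign reversed.

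**Figure D3:**
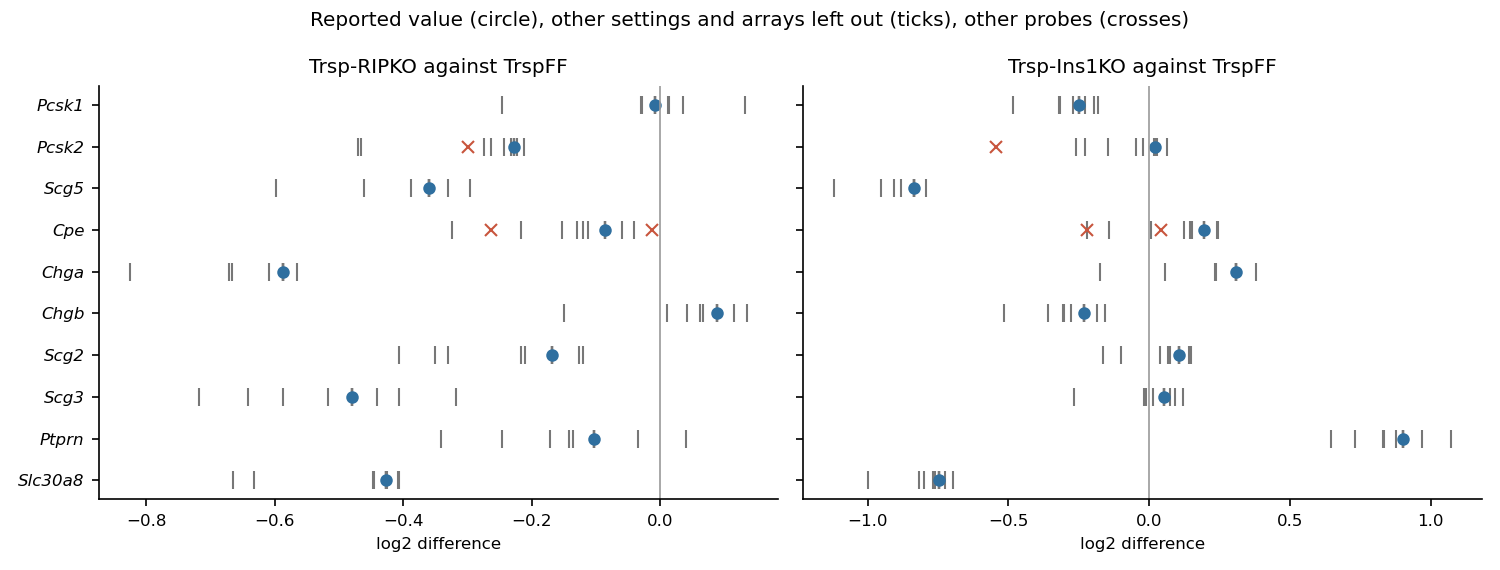
Log2 difference from TrspFF of each gene in the reported fit (circles), under the other settings and with single arrays left out (grey ticks), and by other probes of Pcsk2 and Cpe (crosses), without the table's own column names. The x axes differ between panels. Scg5, Slc30a8 and Ptprn in Trsp-Ins1KO stay on 1 side of 0, whereas Pcsk2, Cpe, Chga, Scg2 and Scg3 have ticks on both sides there.

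Other genes of the pathway were read from a list of 61, of which 58 were tested. In Trsp-RIPKO 8 of the 58 rose and 12 fell, with a median of -0.039, where 18.9% and 17.5% of all genes did. In Trsp-Ins1KO 18 rose and 5 fell, with a median of 0.12, where 23% and 22.9% of all genes did. Between the knockouts 20 were higher in Trsp-Ins1KO and 3 lower, where 19.3% and 19.4% of all genes were. Slc18a2, not well above background in Trsp-Ins1KO, was among the 5 that fell there and among these 3. Without the filter on dim probes 9 of the 58 were called in Trsp-RIPKO, where 32494 genes had 1852 higher and 839 lower calls. The Trsp-RIPKO count was also lower without any 1 TrspFF or Trsp-RIPKO array, as was that of all genes. In Trsp-Ins1KO both counts were lower without TrspFF 1 or TrspFF 2. Between the knockouts both were lower without any 1 array.

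Of 11 processing enzymes and inhibitors tested, 2 were higher and 5 lower in Trsp-RIPKO and 6 were higher and 0 lower in Trsp-Ins1KO. Between the knockouts 6 were higher and 0 lower in Trsp-Ins1KO. The shares of all genes called higher and lower were 18.9% and 17.5%, 23% and 22.9%, and 19.3% and 19.4% in these comparisons. Pam, the enzyme that amidates peptide hormones, read 1.68 and 1.74 in TrspFF against 2.97 and 3.15 in Trsp-RIPKO and then 3.25 and 3.04 in Trsp-Ins1KO. Pam rose by 1.35 and 1.43 (limma adjusted p = 0.00399 and 0.00179), with both knockouts above the controls. Pcsk1n, which encodes proSAAS, an inhibitor of Pcsk1, read 6.07 and 6.02, 5.31 and 5.37, and 6.67 and 6.58 for the groups in that order. It was lower in Trsp-RIPKO by 0.71 (adjusted p = 0.00603) and higher in Trsp-Ins1KO by 0.58 (adjusted p = 0.00435), with no overlap between groups. Pcsk6, a convertase of the secretory pathway, fell by 0.59 in Trsp-RIPKO (adjusted p = 0.00957). Without TrspFF 1 the Trsp-RIPKO calls of Pcsk1n (adjusted p = 0.0539) and Pcsk6 (0.0708) were lost, and that of Pcsk6 also without TrspFF 2 (0.0642) or Trsp-RIPKO 2 (0.0545).

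Granins and granule membrane proteins outside the set counted 3 higher and 1 lower of 10 in Trsp-RIPKO, and 4 higher and 1 lower in Trsp-Ins1KO. Vgf, a granin-like precursor of several secreted peptides, read 1.2 and 1.22 in TrspFF against 2.28 and 2.29 in Trsp-RIPKO and then 3.70 and 3.57 in Trsp-Ins1KO. It rose by 1.07 in Trsp-RIPKO (limma adjusted p = 0.00327) and by 2.43 in Trsp-Ins1KO (adjusted p = 0.000397), stepping upward across 3 groups that did not overlap. Slc17a9, which loads nucleotides into granules, was higher by 0.64 in Trsp-RIPKO (limma adjusted p = 0.00621) and by 0.63 in Trsp-Ins1KO (adjusted p = 0.00306). Its Trsp-RIPKO call was lost without TrspFF 1. Ptprn2, the close relative of Ptprn that encodes phogrin, read 1.97 and 2.12, 2.31 and 2.98, and 2.59 and 3.02, and its differences of 0.60 and 0.76 missed the threshold (adjusted p = 0.125 and 0.0642). The Trsp-RIPKO difference of Ptprn2 was 0.93 without Trsp-RIPKO 1 and 0.27 without Trsp-RIPKO 2, and the Trsp-Ins1KO difference passed in 7 of 15 alternative settings. With the replicate number as a block, both passed (adjusted p = 0.0425 and 0.0204). Slc18a2, the vesicular monoamine transporter of beta cells, read -3.31 and -3.85, -3.78 and -3.74, and -5.86 and -5.60. It was not well above background on the Trsp-Ins1KO arrays, so no fold is given (limma adjusted p = 0.00243), and the sign of its fitted difference turned with normexp background correction.

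**Figure D4:**
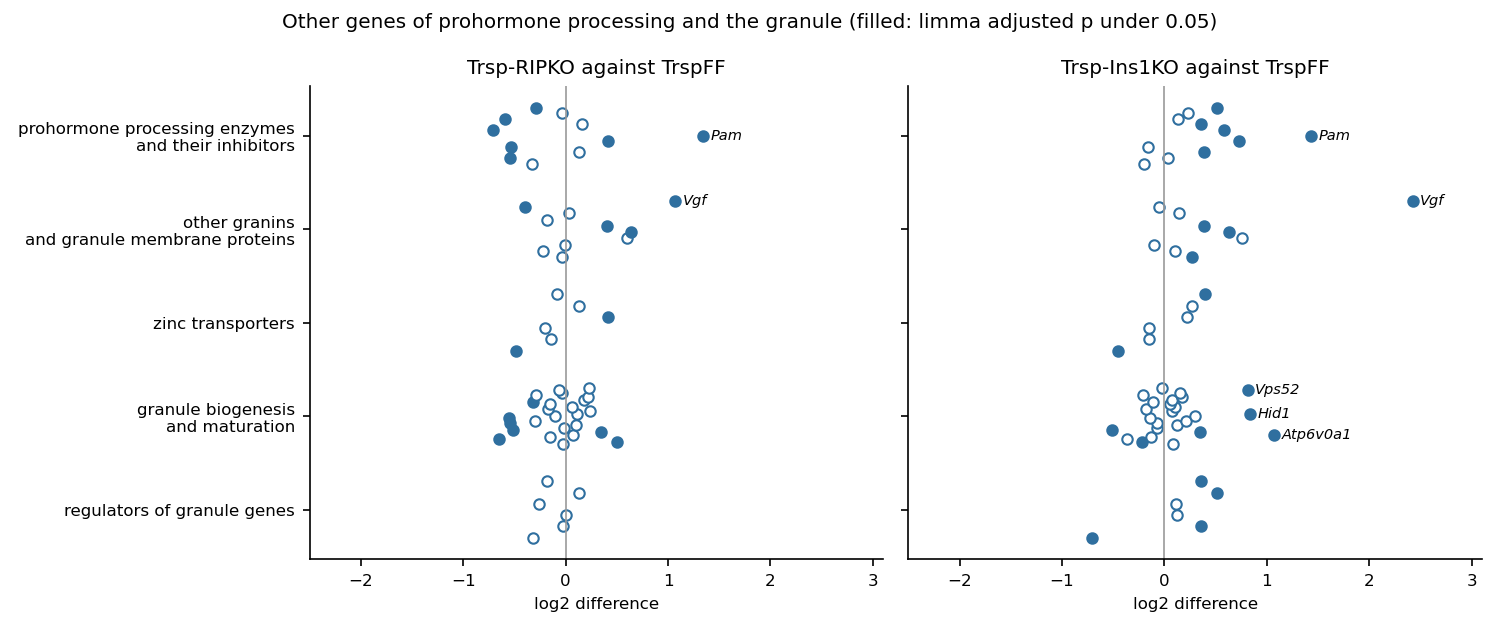
Log2 difference from TrspFF of the 58 other pathway genes tested, in 5 groups by role; each point is a gene, filled where the limma adjusted p was under 0.05, spread vertically for legibility. Vgf and Pam lie highest in both panels, and Slc18a2, not well above background in Trsp-Ins1KO, is not drawn in that panel.

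In granule biogenesis and maturation, 2 of 25 genes rose and 5 fell in Trsp-RIPKO, and 4 rose and 2 fell in Trsp-Ins1KO. Beside this and the other counts of this paragraph, 18.9% of all genes rose and 17.5% fell in Trsp-RIPKO. In Trsp-Ins1KO the shares were 23% and 22.9%. Atp6v0a1, a subunit of the proton pump that acidifies granules, read 3.35 and 3.33, 3.31 and 3.51, and 4.47 and 4.36, and was higher in Trsp-Ins1KO by 1.07 (limma adjusted p = 0.0022). Hid1 and Vps52, which act in trafficking at the trans-Golgi network, were higher in Trsp-Ins1KO by 0.84 and 0.82 (adjusted p = 0.00223 and 0.00331), and the call of Vps52 was lost with the mean over its probes (0.49, adjusted p = 0.0789). Atp6ap1, an accessory subunit of the proton pump, read 0.42 and 0.34, -0.06 and -0.48, and 0.14 and -0.11. It was lower in Trsp-RIPKO by 0.65 (adjusted p = 0.0371), and the call was lost without TrspFF 1 (adjusted p = 0.16), TrspFF 2 (0.126) or Trsp-RIPKO 2 (0.114), with the mean over its probes (-0.54, 0.125) and without the filter on dim probes (0.0969). Zinc transporters other than Slc30a8 had 1 of 6 higher and 1 lower in each knockout. Of 6 regulators of granule genes, 0 were called in Trsp-RIPKO, and 3 were called higher and 1 lower in Trsp-Ins1KO. Insm1, a zinc finger factor of endocrine cells, differed by -0.027 in Trsp-RIPKO (adjusted p = 0.834) and rose by 0.36 in Trsp-Ins1KO (adjusted p = 0.0279), a call lost without any 1 array but Trsp-Ins1KO 2 (adjusted p from 0.054 to 0.129). The Insm1 call held in 7 of 15 settings, and the difference was 0.29 with median scaling (adjusted p = 0.0937) and 0.077 with normexp (0.435). Rest, the repressor of neuronal and granule genes, was not well above background on all arrays of any group and was not tested, as were Pcsk5 and Vps53.

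Cell-type markers also moved between the groups, and their part in the results above was not tested. In bulk islets, fewer cells of a type and less RNA per cell cannot be told apart. The summed intensity of 9 beta-cell markers, relative to the array's 75th percentile, was 3139 and 3531 in TrspFF against 3530 and 3786 in Trsp-RIPKO and then 5824 and 6401 in Trsp-Ins1KO. That percentile was 122 and 111 in Trsp-Ins1KO and 203 to 247 on the other 4 arrays. Before scaling, the highest median spot signal was 345826 and 345641 in TrspFF and 333976 and 332961 in Trsp-Ins1KO. The rise of the sum is thus relative to each array's own level. Of these 9 markers 3 fell in Trsp-RIPKO, while 6 rose and 1 fell in Trsp-Ins1KO. Among all genes 18.9% rose and 17.5% fell in Trsp-RIPKO, and 23% rose and 22.9% fell in Trsp-Ins1KO. Ins1, Ins2 and Iapp made up 95.3% to 97.8% of the sum on each array. In Trsp-Ins1KO the glucose transporter Slc2a2 fell by 0.71 (limma adjusted p = 0.00318), and Ucn3 (-0.16, adjusted p = 0.309) and G6pc2 (-0.048, adjusted p = 0.642) did not pass. The sum of 6 alpha-cell markers was 718 to 747, 618 to 666, and 510 to 528 in the same order, with 0 called in Trsp-RIPKO and 2 called lower in Trsp-Ins1KO. The sum of 3 delta-cell markers was 267 to 271, 221 to 233, and 152 to 162, and the sum of 3 PP and epsilon markers was 666 to 672, 314 to 326, and 461 to 518. All 3 delta-cell markers fell in Trsp-Ins1KO, and all 3 PP and epsilon markers fell in Trsp-RIPKO. The alpha-cell and delta-cell sums stepped down across the groups in the same order as Scg5 and Slc30a8. The brightest markers in these sums were Gcg and Sst. In Trsp-RIPKO Gcg did not pass (-0.21, limma adjusted p = 0.0825). Of the delta-cell markers there, Sst fell (-0.27, adjusted p = 0.0461), Hhex rose (0.23, adjusted p = 0.0449) and Rbp4 did not pass (-0.11, adjusted p = 0.221).

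Other cells that use granins were also examined. The 6 enteroendocrine markers had 3 tested, with Gip, Nts and Insl5 not well above background, and their sum was 0.68 to 0.70 in TrspFF, 1.41 to 1.55 in Trsp-RIPKO, and 0.39 to 0.47 in Trsp-Ins1KO. Cck made up 69.3% to 73.5% of the sum in Trsp-RIPKO and 13.8% to 15.9% in TrspFF. In Trsp-RIPKO Cck rose by 3.38 (limma adjusted p = 0.000991), Tac1 fell by 0.58 (adjusted p = 0.0122) and Sct did not pass (-0.29, adjusted p = 0.278). In Trsp-Ins1KO Cck rose by 1.37 (adjusted p = 0.00294), and Tac1 and Sct, not well above background there, were at least 4.32-fold and 2.10-fold lower. The sum of 4 tested neuron and Schwann-cell markers was 13.3 to 13.5, 11.6 to 12.1, and 12.5 to 13.8. Cells outside the endocrine islet differed too: the fibroblast sum was 12.6 to 13.1, 19.4 to 19.6, and 4.80 to 5.01, and the endothelial sum 41.7 to 42.7, 54.7 to 54.9, and 77.1 to 82.0. Of 7 fibroblast markers tested, 6 rose in Trsp-RIPKO, and 1 rose and 6 fell in Trsp-Ins1KO, and 4 of 6 endothelial markers rose in each. Acinar-cell sums were 11.9 to 12.5, 16.3 to 17.9, and 14.9 to 16.0, with 9 and 7 of 10 markers called higher. Duct-cell sums were 0.84 to 0.95, 2.04 to 2.11, and 0.96 to 1.04, and macrophage sums 5.20 to 5.59, 6.77 to 7.20, and 6.92 to 7.06. Intestinal sums were 6.10 to 6.39, 7.88 to 8.04, and 7.93 to 8.36, and Vil1 made up 85.0% to 99.6% of them. Fabp1 was not well above background in TrspFF and was at least 12.8-fold higher in Trsp-RIPKO and 11.3-fold higher in Trsp-Ins1KO. Fabp2, well above background in Trsp-RIPKO alone, was at least 10.9-fold higher there than in TrspFF. Alpi, Apoa4, Lgr5, Cdx1 and Cdx2 were not well above background on all arrays of any group.

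**Figure D5:**
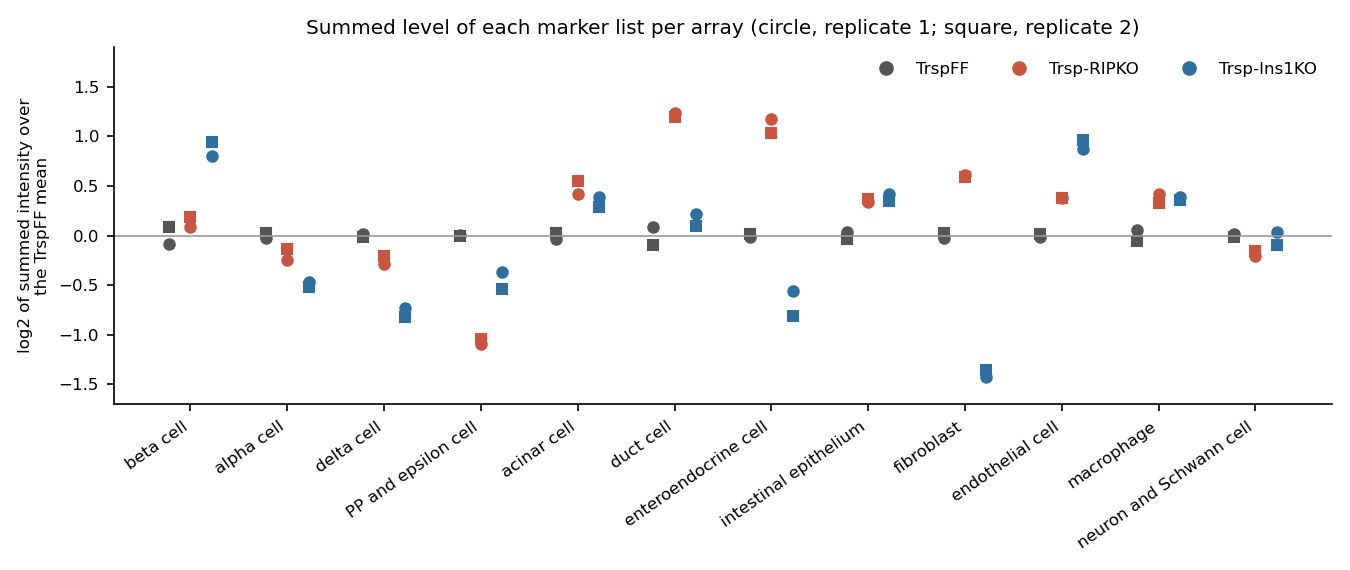
Log2 of the summed intensity of each marker list on each array, relative to the TrspFF mean; circles are replicate 1 and squares replicate 2. The beta-cell sum, mostly Ins1, Ins2 and Iapp, is higher on the Trsp-Ins1KO arrays (5824 and 6401) than on the other 4, while the alpha-cell and delta-cell sums are lower there.

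The genes whose centred values over the 6 arrays lay nearest to each member were found among 13369 tested genes with a symbol, by root-mean-square distance on the log2 scale. Nearest to Scg5 were Phip and Ccdc90b (0.030 and 0.036), and nearest to Slc30a8 were Hnrnpa1 and Krcc1 (0.013 and 0.024). Chga was nearest to Cd99 and Tle5 (0.043 and 0.056), and Ptprn to Grin2c and Shmt2 (0.092 and 0.096). Pcsk1 lay nearest to Naa50 and Ccar1, Pcsk2 to Dhodh and Ncaph2, Cpe to Timm44 and Rasgef1b, Chgb to Sdhaf2 and Mdh1, Scg2 to Xbp1 and Psmd7, and Scg3 to Tbc1d9, at distances of 0.013 to 0.049. No member was among the nearest genes of another member. These points share their 6 arrays, and the likeness is a description only.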

How the data were processed

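Messenger RNA of islets was measured on 6 arrays, grouped by sample title. The scans were quantified by Feature Extraction 10.7.3.1 on array design 026655, per the file headers, and the deposited processed intensity is background-subtracted and not scaled between arrays. A deposited series table by the authors holds log2 values that behave as centred per probe (the sources used here give no scaling for it) and served as an alternative under its own column names. From the processed intensity, log2 values minus each array's 75th percentile were computed, without control and outlier spots (39426 probes). A probe counted as well above background where most of its usable spots were, and entered where this held on all arrays of at least 1 group. The brightest of a gene's entering probes by mean represented it. RefSeq accessions named 26053 probes through a GRCm38.p6 table, used for names and promoters.

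Groups were compared with limma 3.58.1 (R 4.3.3; lmFit and eBayes over all 6 arrays, two-sided, Benjamini-Hochberg over 19020 genes), tested on simulated data. Only 2 arrays a group limit the precision. Alternatives were normexp background (offset 50, on the median spot signal, since the files hold no mean signal), quantile and median scaling, other filters, probe rules, variance and sample choices, the replicate number as a block, and single arrays left out. The other probes of Pcsk2 and Cpe were added after seeing the data. Same-numbered arrays deviated together only weakly (r of 0.064 to 0.093), so the numbers were not taken as pairs. The members and gene lists were chosen with earlier results of these data known. Pathway genes named are the 6 called genes with the largest change in each knockout against TrspFF, plus Ptprn2, Pcsk1n, Vgf, Pam, Insm1 and Rest; for likeness, the 2 nearest genes of each member, of which 1 is not reported here. Files were read and figures drawn in Python 3.11.15 with numpy 2.4.6, pandas 2.3.3 and matplotlib 3.10.9.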

Additional observations from a re-analysis of the deposited data

Results flagged for a closer look

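For 9 of the 10 genes the difference from TrspFF was not the same in both knockouts, by limma's test of the difference between them, where 38.7% of all 19020 genes were called. Because both comparisons use the same TrspFF arrays, this is the Trsp-Ins1KO minus Trsp-RIPKO difference on the log2 scale. It was 1.00 for Ptprn, 0.89 for Chga, 0.53 for Scg3, 0.28 for Cpe, 0.28 for Scg2 and 0.25 for Pcsk2, and -0.48 for Scg5, -0.32 for Chgb and -0.32 for Slc30a8. Leaving out any 1 array lost several of these calls, and fewer of all genes were called then too. The call of Cpe held in 3 of 15 alternative settings and those of Pcsk2 and Scg2 in 4 of 15. The other probe of Pcsk2 (-0.24) and the dim probe of Cpe (-0.21) gave the opposite sign. The other bright probe of Cpe kept the sign (0.31, limma adjusted p = 0.0213). Slide 2 held the Trsp-RIPKO arrays alone, so slide and group cannot be told apart in this comparison. Groups of 2 arrays are too small to look for single arrays that stand apart.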

How the results depend on the processing

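Counts of members called are given here beside the higher and lower calls among all genes. In Trsp-RIPKO against TrspFF the reported fit called 4 members, and 3592 and 3326 of all genes. Members called were 7 with normexp background (5070 and 4460 of all genes) and 7 with median scaling (2012 and 7264). They were 9 under the table's own column names (3697 and 3658). Without the filter on dim probes 1 member was called, and 1852 and 839 of 32494 genes. In Trsp-Ins1KO against TrspFF members called were 3 with median scaling (3433 and 4806 of all genes) and 3 without the filter (10243 and 3701 of 32494). Between the knockouts they were 5 without the filter (8344 and 3298 of 32494 genes) and 3 in a fit of those groups alone (2683 and 2868 of 18625). They were 5 with the replicate block (3528 and 3523 of all genes) and 4 under the table's names (3323 and 3592). The replicate block moved no other count by over 1.5 times, although every array shares only a number with its partners. Other pathway genes called in Trsp-RIPKO were 9 without the filter and 2 to 20 with single arrays left out; the same ranges were 11 to 20 for Trsp-Ins1KO and 13 to 21 between the knockouts. Normexp moved the all-gene median to 0.16 in Trsp-Ins1KO and 0.13 between the knockouts, and no filter moved it to 0.28 in Trsp-Ins1KO.

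These values turned their sign, and the cause was not tested. In Trsp-RIPKO, Pcsk1 was 0.13 with normexp, 0.036 with quantile normalization and -0.030 to 0.014 with single arrays left out, Chgb was -0.15 with median scaling, Ptprn was -0.25 to 0.041 with single arrays left out, and Insm1 was 0.039 with quantile normalization. In Trsp-Ins1KO, normexp gave Pcsk2 -0.23, Cpe -0.14, Scg2 -0.16 and Scg3 -0.27; quantile normalization gave Pcsk2 -0.15, Cpe -0.22, Chga -0.18 and Scg2 -0.10; median scaling gave Pcsk2 -0.048 and Scg3 -0.017; and the mean over probes gave Pcsk2 -0.26. With single arrays left out, Pcsk2 was -0.020 to 0.065 and Scg3 -0.012 to 0.12, below 0 without Trsp-Ins1KO 1. The other probe of Pcsk2 gave -0.54 and the dim probe of Cpe gave -0.22. Between the knockouts these probes gave -0.24 and -0.21, and quantile normalization gave Cpe -0.070. Under the table's own column names, values of Trsp-RIPKO were Pcsk1 0.24, Scg5 0.48, Slc30a8 0.32, Pam -0.088, Vgf -1.35 and Ptprn2 -0.16. Those of Trsp-Ins1KO were Pcsk1 0.25, Pcsk2 -0.022, Scg5 0.84, Cpe -0.20, Chga -0.31, Chgb 0.23, Scg2 -0.11, Scg3 -0.053, Ptprn -0.90, Slc30a8 0.75, Vgf -2.43, Pam -1.43, Atp6v0a1 -1.07, Hid1 -0.84, Vps52 -0.82, Ptprn2 -0.76, Pcsk1n -0.58 and Insm1 -0.36. Between the knockouts they were Pcsk1 0.0077, Scg5 0.36 and Slc30a8 0.43. The fitted value of Slc18a2 in Trsp-Ins1KO turned to 0.31 with normexp and to 2.15 under the table's names; the gene was not well above background there, so neither is a measured fold.

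A slide block was not run: slide 2 held Trsp-RIPKO alone, and Trsp-Ins1KO against TrspFF lies within slide 1. A fit that leaves out an array assumes that the lone array of its group varies like the other groups. The scanner software marked both Trsp-RIPKO arrays for evaluation. Of 760 recomputed values of the named genes, 546 kept their direction and their side of the threshold.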
